A study of Rattus norvegicus with 19 samples.

Results

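The AP-1 genes besides Fos were the Fos-family genes Fosb, Fosl1 and Fosl2 and the Jun-family genes Jun, Junb and Jund, taken by gene name from the table that pairs each transcriptionally active putative enhancer (TAPE) with every gene within 1 Mb. All 6 genes were present among 17715 genes, and they carried 147 of 388605 TAPE-gene pairs, each with a different TAPE of 27538. A TAPE is a stretch of open chromatin outside genes that gives RNA from both strands, and such RNA is called enhancer RNA (eRNA). The RNA came from neurons of embryonic day 18 Sprague-Dawley rats, cultured from cortex, hippocampus or striatum for 11 days and exposed for 1 h to vehicle (neurobasal medium) or to KCl, which depolarises neurons. There were 3 libraries in each region and treatment, except 4 for striatum vehicle, 19 in all, with no genetic change in any group. The sample labels give the KCl concentration as 25 mM and the series text as 10 mM, so the dose is uncertain. Cultures of embryonic tissue also hold glia, and in such bulk RNA fewer cells of a type and less RNA per cell cannot be told apart. The labels do not say which libraries came from separate litters, so p-values measure the spread between these libraries.

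AP-1 is a pair of leucine-zipper proteins, a Fos-family protein bound to a Jun-family protein or 2 Jun-family proteins bound to each other, that binds DNA at a short palindromic site. Several of its genes are immediate-early genes: depolarisation lets calcium into the neuron, kinases modify transcription factors already on the DNA, such as CREB and partners of SRF, and the genes are transcribed without new protein synthesis. Fos-family proteins differ in lifetime and strength, and FosB and its truncated form ΔFosB are best known from the striatum, where ΔFosB builds up after repeated stimulation.

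The genes lay at 6 loci of the Rn6 assembly. Fosb (chr1:80214494-80221710, minus strand) had 19 TAPEs, Fosl1 (chr1:220826560-220835066, plus strand) had 14, Fosl2 (chr6:25598936-25616995, minus strand) had 18, Jun (chr5:114011189-114014277, minus strand) had 16, Junb (chr19:26092974-26094756, minus strand) had 64 and Jund (chr16:20485029-20486707, minus strand) had 16. Most of these TAPEs gave little RNA. The total over 19 libraries ran from 3 to 771 reads, out of 46.4 to 72.5 M reads in each library. A mean of at least 0.05 CPKM (reads per kilobase and per M reads) over the 19 libraries was needed for a test, and 24 of the 147 passed: 7 for Fosb, 7 for Fosl1, 2 for Fosl2, 3 for Junb, 5 for Jund and 0 for Jun. The other 123 had at most 204 reads each.

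The sequences available for these loci are the oligos designed by the study for Fosb, the gene with the most responsive TAPEs, and the promoters of 5 genes from RefSeq. Shown first are the 3 guides against the Fosb enhancer and the primer pair for its eRNA, written 5′ to 3′ as listed, to show what was targeted; their positions were not mapped here.
Fosb enhancer guide 1: gttgtttgtccccggccagg
Fosb enhancer guide 2: gagggctcaaggagtcgctc
Fosb enhancer guide 3: accttcctgtcgctaggcaa
Fosb eRNA primer 1: cctctctcccttgcctacct
Fosb eRNA primer 2: tttgcgcctgcttttcagac

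The 250 bases before the RefSeq start of Fosb, Fosl1, Fosl2, Junb and Jund were searched on both strands for TGACGTCA (the full cAMP response element, bound by CREB), for TGANTCA (the AP-1 site) and for the CArG box bound by SRF. The only match was 1 TGACGTCA in Jund, between 221 and 214 bases before the start. Neither guide that the study designed against the Fosb promoter occurred in the Fosb window. The lack of a match there thus does not describe the promoter that the study targeted. This element was found in 531 of 33469 rat promoters (1.59%), TGANTCA in 6.34% and the CArG box in 1.5%. The Jund window is shown because it holds the match, which capitals mark, and the Junb window as that of the Jun-family gene whose nearest TAPE passed the KCl test. They are from the GRCr8 assembly, chr16:18769772-18770021 (minus strand) for Jund and chr19:40080876-40081125 (plus strand) for Junb, and not from the assembly of the measurements.
Jund promoter: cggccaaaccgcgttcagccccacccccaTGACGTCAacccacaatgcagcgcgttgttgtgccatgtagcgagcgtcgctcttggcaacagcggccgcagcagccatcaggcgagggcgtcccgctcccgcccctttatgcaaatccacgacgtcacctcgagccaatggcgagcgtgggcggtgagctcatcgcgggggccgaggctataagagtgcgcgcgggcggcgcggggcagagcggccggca
Junb promoter: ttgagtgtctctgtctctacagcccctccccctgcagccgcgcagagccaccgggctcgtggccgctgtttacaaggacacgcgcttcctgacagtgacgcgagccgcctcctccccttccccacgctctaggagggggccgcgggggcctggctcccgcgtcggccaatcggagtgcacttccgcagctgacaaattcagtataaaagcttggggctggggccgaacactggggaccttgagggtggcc

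The first question was whether the 6 genes themselves responded to depolarisation. All 6 were higher after KCl, in every region and without overlap between treatments, and they differed in how large the cortical and hippocampal rises were beside the striatal one. The table used here holds no gene expression values, so the pattern of each gene across the 19 libraries was recovered by linear algebra from the deposited correlation values with its surrounding TAPEs. This profile has a mean of 0 and a standard deviation of 1 and gives the pattern over libraries but no fold change or level, so genes cannot be ranked by size of response. Such a profile was obtained for 16180 genes. The KCl libraries were above all vehicle libraries in each of the 3 regions for 2.32% of those genes and for 6 of 6 members. In the exact permutation test within regions (two-sided, 14000 arrangements) each of the 6 had p = 7.14e-05, the smallest the design can give, and a Benjamini-Hochberg adjusted p over all 16180 genes of 0.00181. In all, 6.24% of genes passed that test as higher after KCl.

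Fosb, whose protein partners Jun-family proteins, stood at -0.90, -0.89 and -0.90 in cortex vehicle and at 0.82, 0.85 and 0.88 in cortex KCl. In hippocampus it went from between -0.91 and -0.90 to 0.27, 0.13 and 0.19. In striatum the vehicle libraries lay between -0.77 and -0.65 and the KCl libraries at 1.88, 1.62 and 1.62. The striatum KCl libraries were thus the highest of the 19 and the hippocampus KCl libraries the lowest of the KCl libraries. Differences within a profile are proportional to differences in expression, so increments can be compared between regions as shares: the rise of Fosb in hippocampus was 45.5% and in cortex 71.8% of its rise in striatum. The 3 KCl increments of each region did not overlap with those of the others for Fosb, although with 3 libraries against 3 an exact permutation test cannot go below p = 0.1.

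Fosl2, which encodes Fra-2, had a similar order. Its rise in hippocampus was 27.9% and in cortex 54.2% of that in striatum, again with no overlap between regions. Fosl1, which encodes Fra-1, had the smallest hippocampal share, 15.6%, against 80.6% in cortex. Its hippocampus vehicle libraries stood at -0.45, -0.52 and -0.67 and the KCl libraries at -0.07, -0.25 and -0.18, all below the cortex and striatum KCl libraries, which began at 0.71. The cortex and striatum increments of Fosl1 overlapped.

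Among the members, the hippocampal shares were larger in the Jun family than in the Fos family. Junb, often induced together with Fos, rose in cortex by 99.2% of its striatal rise and in hippocampus by 55.1%, and only the hippocampal increments lay apart from the others. Jun, the prototype partner of Fos, rose in hippocampus by 78.8% and in cortex by 85.6%, with increments in these 2 regions that overlapped. Jun was the member whose hippocampus KCl libraries matched those of striatum: they stood at 1.13, 1.11 and 1.39, beside 1.08, 1.23 and 1.14 in striatum and 0.34, 0.61 and 0.67 in cortex. Jund, commonly described as expressed at a steady level, rose in hippocampus by 95.3% and in cortex by 77.5% of its striatal rise, and its hippocampal increments overlapped with those of both other regions. The hippocampal share thus ran from 15.6% for Fosl1 to 95.3% for Jund.

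**Figure D1:**
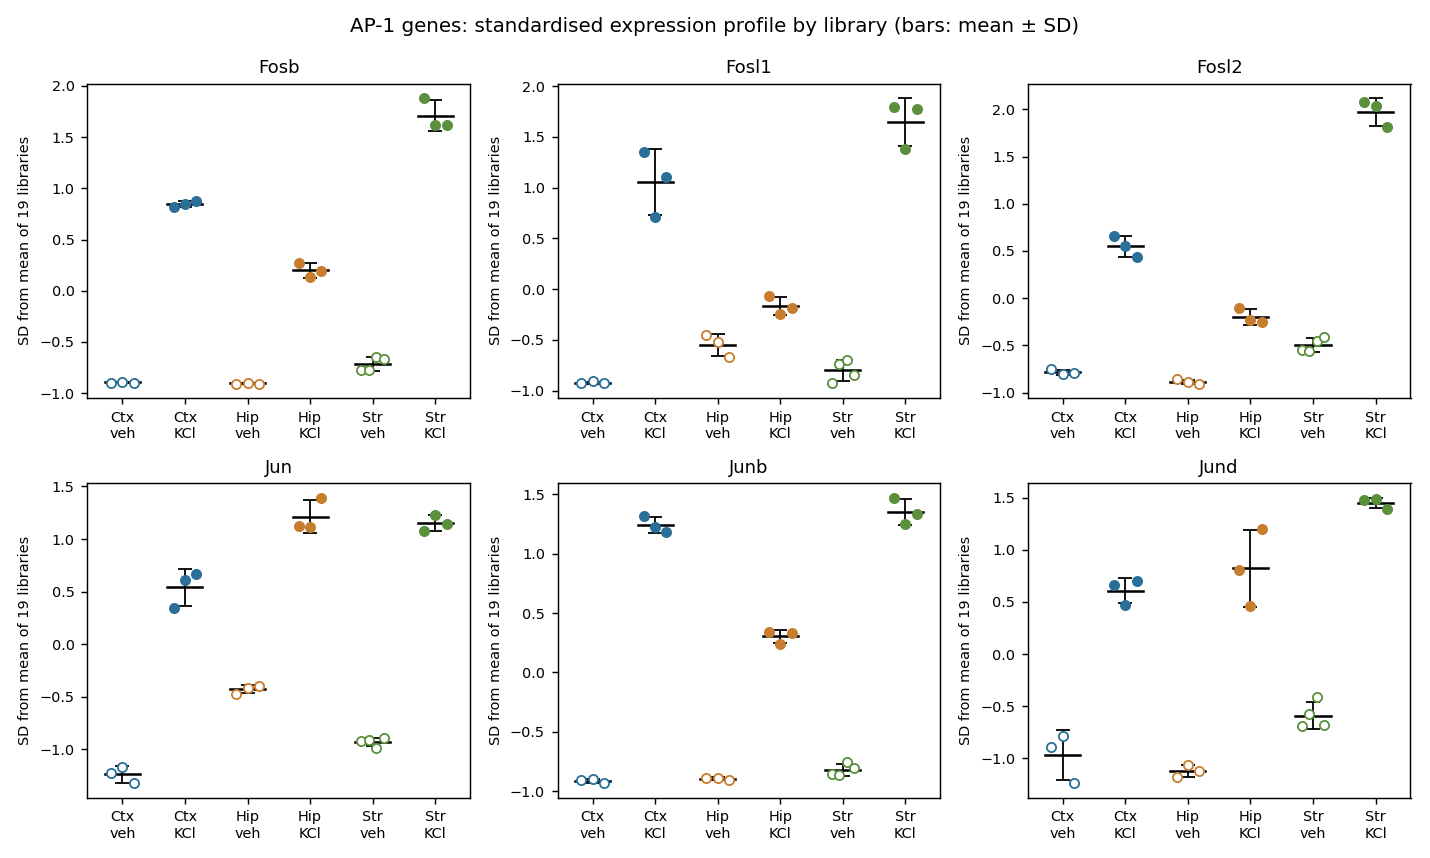
Standardised expression profile (vertical axis, standard deviations from the mean of 19 libraries) of the 6 AP-1 genes in cortex (Ctx), hippocampus (Hip) and striatum (Str) after vehicle (veh, open) or KCl (filled). Each point is a library and bars are mean ± SD. KCl libraries lie above vehicle libraries in every panel and region, and the hippocampus KCl mean is 0.20 for Fosb, -0.17 for Fosl1 and 1.21 for Jun.

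Region differences of the profiles, with treatments pooled, were tested by exact permutation within treatments and adjusted over all 16180 genes. Of 18 combinations of gene and region pair, 14 passed. Cortex against striatum passed for all 6 members (58.3% of all genes), with cortex lower each time. Hippocampus against striatum passed for 5 of 6 (65.3% of all genes): Fosb, Fosl2, Junb and Jund were lower in hippocampus, Jun was higher by 0.28 (adjusted p = 0.0169), and Fosl1 differed by -0.78 with adjusted p = 0.139. Cortex against hippocampus passed for 3 of 6 (45.8% of all genes), with Fosb and Fosl2 higher in cortex by 0.33 and 0.42 and Jun lower by a difference of -0.74 (each with an adjusted p of 0.0143). Fosl1, Junb and Jund did not pass. The last count is close to the share over all genes. Pooling mixes the resting level with the KCl response. For cortex and hippocampus, Fosb had vehicle means of -0.89 and -0.91 and KCl means of 0.85 and 0.20. Fosl2 had vehicle means of -0.79 and -0.88 and KCl means of 0.55 and -0.20, so both differences lay mainly in the KCl libraries. Jun differed in both treatments, with vehicle means of -1.24 and -0.43 and KCl means of 0.54 and 1.21.

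The members' profiles were alike, with Pearson r between pairs from 0.71 (Fosl2 and Jun) to 0.97 (Fosb and Junb) over 19 libraries that share the same treatments. The genes most like Fosb were Npas4 (r = 0.997), Fos (0.994) and Nr4a1 (0.994), all activity-induced transcription factors. Fosl1 was most like Egr4 (0.987), Spty2d1 (0.979) and Npas4 (0.975). Fosl2 was most like Lrrc4 (0.987), Arc (0.984), an activity-regulated synaptic protein, and Nr4a1 (0.979). Jun was most like Egr3 (0.971), Atf3 (0.956) and Gem (0.955), Junb like Arl5b (0.990), Arf4 (0.987) and Fos (0.985), and Jund like Zfand5 (0.965), Mir212 (0.964) and Impdh2 (0.964). Jun and Jund thus had no gene as close as those of the other 4 members.

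Of 28 listed partners and regulators of AP-1, all had a profile, and 12 passed the KCl test as higher and 3 as lower (6.24% of all genes passed as higher and 21.7% in either direction). Their median KCl change was 0.10, beside -0.15 over all solved genes. The higher genes included Fos itself (change 1.83), the Jun partner Atf3 (1.80), the small Maf genes Maff (1.65), Mafk (1.21) and Mafg (0.56), Srf (1.72), which acts on the promoters of immediate-early genes, Crem (1.63) and Fbxw7 (0.67), which marks Jun for degradation. Atf4, Maf and Mapk8, a Jun kinase, were also among those that rose. Lower genes were Creb1 (-1.18), Atf7 (-1.12) and Mapk10 (-0.24). Fos had the order of Fosb, with KCl changes of 1.87 in cortex, 1.31 in hippocampus and 2.29 in striatum, in units of its own standard deviation. Its hippocampal share of the striatal change was slightly above that of Junb, so the split between families holds only for the members.

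The second question was whether TAPEs near these genes responded. Averaged over the 3 regions, 4 of 24 tested TAPEs passed (limma on log2(CPKM + 0.05), adjusted over 1870 TAPEs), 3 higher and 1 lower, against 6.9% of all tested TAPEs, 1.76% higher and 5.13% lower. The 3 higher ones were 2 TAPEs upstream of Fosb and the TAPE next to Junb. An unadjusted p under 0.05 was reached by 12 of 24, and by 23.9% of all tested TAPEs. The median change was -0.09 over the 24 TAPEs and -0.14 over all 1870, so a TAPE with no change relative to the rest lies slightly below 0. With each library centred on its median, the 4 calls stayed, with changes of 1.17 and 1.02 for the Fosb TAPEs at 10.3 and 32.8 kb, 0.82 for the Junb TAPE and -0.61 for the Fosl1 TAPE. No member TAPE passed in cortex (limma, 0 of 24, against 0.321% of all) or in hippocampus (0 of 24, against 0.0535%), and voom on the recovered reads also gave 0 in each. An unadjusted p under 0.05 was reached by 3 in cortex (10.4% of all tested TAPEs) and 4 in hippocampus (13.3%), close to the shares over all. In striatum 1 passed, as higher, against 1.23% of all in either direction and 0.802% higher. There an unadjusted p under 0.05 was reached by 8 of 24, with changes in both directions, and by 15.1% of all tested TAPEs.

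Fosb had 4 TAPEs within 50 kb, all upstream. The nearest (chr1:80230915-80233062, Rn6), 10.3 kb from the start, had the largest averaged log2 change among the 24 tested TAPEs of these genes. Its CPKM was 0.0523, 0.0963 and 0.0692 in cortex vehicle and 0.201, 0.36 and 0.109 in cortex KCl. In hippocampus it was 0.0906, 0.144 and 0.0506 against 0.326, 0.32 and 0.295. The KCl libraries lay above all vehicle libraries in both regions, and the 3 hippocampus KCl libraries were close together. In striatum it was 0.18, 0.141, 0.161 and 0.129 in vehicle and 0.58, 0.197 and 0.17 in KCl, where KCl replicate 1 stood far above the other 2 and the groups overlapped. The log2 change was 1.04 ± 0.196 (SE) averaged over regions, with adjusted p = 0.00145, and it ranged from 0.88 to 1.16 when single libraries were left out, with adjusted p of at most 0.00431. The cortex change was 1.07, the hippocampus change 1.38 and the striatum change 0.69, none of which passed alone, and the difference between regions did not pass either (adjusted p = 0.838). Fosb RNA rose least in hippocampus, where the log2 change of this TAPE had its highest value, on a different scale.

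The TAPE 32.8 kb upstream of Fosb (chr1:80253248-80255806) was also higher after KCl, and had a higher correlation with the gene over the 19 libraries (0.81 against 0.65). It had CPKM of 0.0251, 0.0431 and 0.0755 in cortex vehicle and 0.227, 0.237 and 0.149 in cortex KCl. Hippocampus went from 0.0276, 0.0404 and 0.0566 to 0.0615, 0.0689 and 0.0846, and striatum from 0.0963, 0.189, 0.0674 and 0.0945 to 0.303, 0.173 and 0.24. Cortex and hippocampus did not overlap between treatments, and in striatum 1 vehicle library exceeded the lowest KCl library. The averaged log2 change was 0.89 ± 0.174 (adjusted p = 0.00197). Its centre was nearer to the start of Ercc1, a DNA repair gene, at 2446 bp, with which its deposited correlation was -0.29.

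The TAPEs 17.1 and 23.4 kb upstream of Fosb lay between these 2 and did not pass the averaged test. The first, named after its values were seen, had a log2 change of 0.32 ± 0.167 (adjusted p = 0.25) and the second 0.46 ± 0.194 (adjusted p = 0.133). At 23.4 kb the striatum KCl libraries had 0.489, 0.182 and 0.19 CPKM against 0.216, 0.19, 0.155 and 0.13 in vehicle, so that again KCl replicate 1 stood apart.

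The TAPE 7.13 kb upstream of Junb (chr19:26100689-26103090) was the 1 that passed of its 3 tested TAPEs, the other 61 of its 64 being too low to test. Striatum vehicle had 0.132, 0.126, 0.0934 and 0.0719 CPKM, and striatum KCl had 0.299, 0.246 and 0.415. Hippocampus had 0.0515, 0.0932 and 0.121 in vehicle and 0.131, 0.147 and 0.166 in KCl, and cortex had 0.0801, 0.0919 and 0.0989 against 0.117, 0.168 and 0.0852. Treatments did not overlap in striatum and hippocampus and overlapped in cortex. The averaged log2 change was 0.69 ± 0.161 (adjusted p = 0.00733) and the change in striatum 1.24 ± 0.254 (adjusted p = 0.0305). The striatal call was lost whichever of its 7 libraries was left out, with adjusted p from 0.0677 to 0.176, and without a filter on low TAPEs, although the change stayed between 1.06 and 1.39. The interaction of KCl and region did not pass (unadjusted p = 0.0507, adjusted p = 0.599), so a larger response in striatum was not shown. Its centre lay 4949 bp from the start of Hook2, with which its correlation was 0.01.

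Jund, Fosl2 and Fosl1 had a nearest tested TAPE that did not pass. The Jund TAPE 14.1 kb upstream (chr16:20499921-20501722) had 0.0586, 0.0671, 0.0766 and 0.0288 CPKM in striatum vehicle and 0.136, 0.0921 and 0.202 in striatum KCl, which did not overlap. In cortex and hippocampus it was at 0 in 4 of 12 libraries, and its averaged change was 0.47 ± 0.226 (adjusted p = 0.207). The Fosl2 TAPE 576 kb upstream (chr6:26192007-26194046) likewise had 0.0777, 0.0593, 0.0846 and 0.0508 in striatum vehicle and 0.176, 0.262 and 0.122 in striatum KCl, with a striatal change of 0.97 ± 0.298 (adjusted p = 0.148). At the Fosl1 TAPE 14.7 kb upstream (chr1:220810987-220812635) treatments overlapped in every region, and the averaged change was -0.17 ± 0.187 (adjusted p = 0.636).

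**Figure D2:**
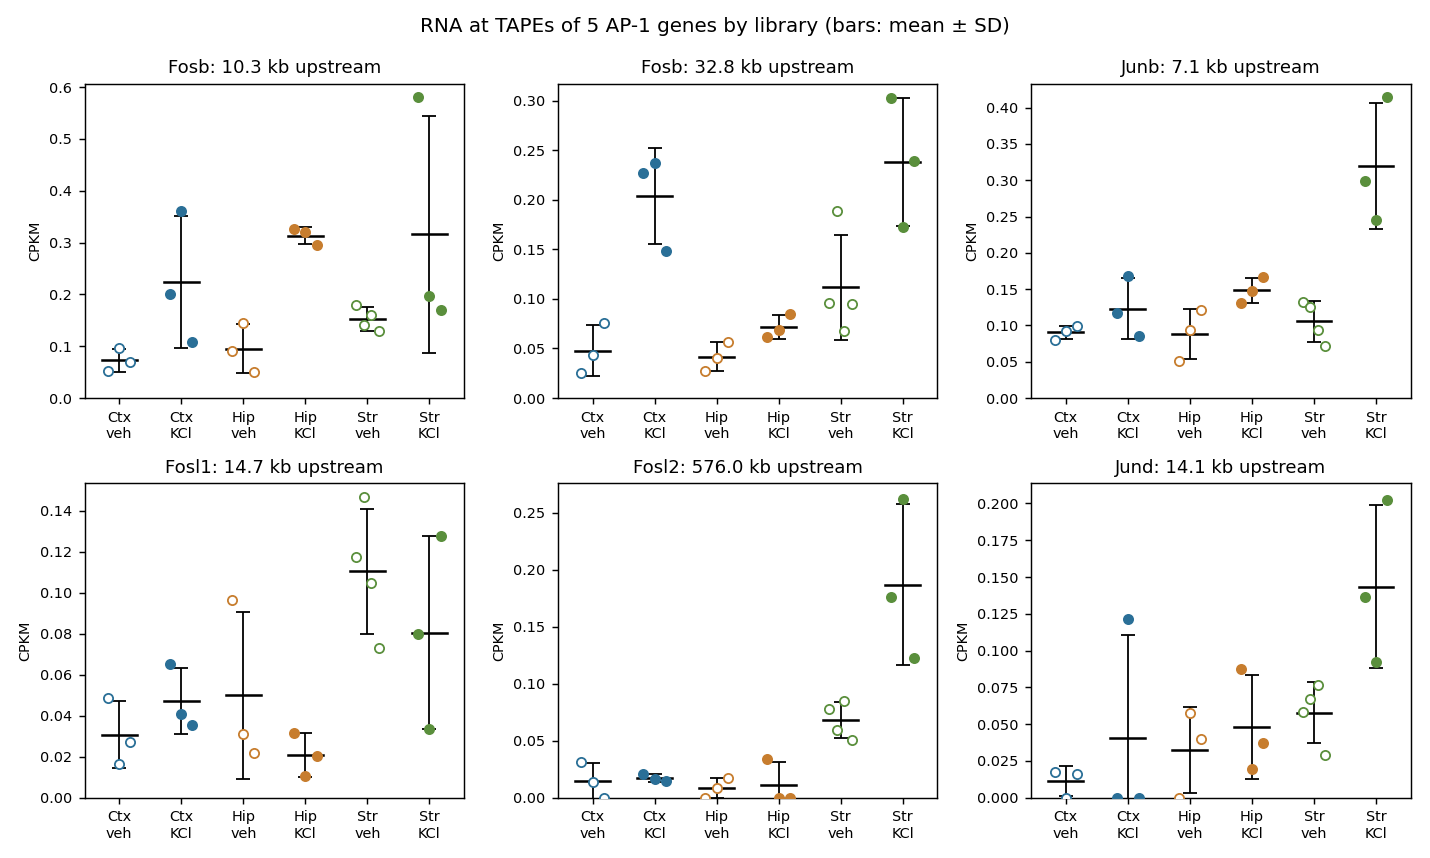
CPKM (vertical axis, from 0) of 6 TAPEs of 5 AP-1 genes by region and treatment, as in the plot of gene profiles: each point is a library and bars are mean ± SD. The Fosb TAPEs are higher after KCl without overlap in cortex and hippocampus, and the highest value of each Fosb, Junb, Fosl2 and Jund TAPE, from 0.202 to 0.58, is in a striatum KCl library.

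Treatments did not overlap, with KCl higher, for 3 of 24 TAPEs in each region. In cortex (5.88% of all tested) these were the Fosb TAPEs at 10.3, 23.4 and 32.8 kb, in hippocampus (4.01%) the Fosb TAPEs at 10.3 and 32.8 kb and the Junb TAPE, and in striatum (3.32%) the Junb, Fosl2 and Jund TAPEs above. All were upstream of their gene, as were most of the 24 tested TAPEs. Each was the nearest tested TAPE of its gene or belonged to the Fosb group, but that of Fosl2 lay 576 kb away. KCl was lower without overlap for 1 TAPE in cortex (10.5% of all), 4 in hippocampus (15.5%) and 2 in striatum (9.73%), all at least 69.2 kb away.

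The 1 TAPE that passed as lower lay 959 kb upstream of Fosl1 (chr1:219866328-219868137), close to the start of Rce1, at 3306 bp. It had 0.401, 0.676 and 0.49 CPKM in hippocampus vehicle and 0.184, 0.175 and 0.12 in hippocampus KCl. Cortex went from 0.47, 0.267 and 0.451 to 0.298, 0.325 and 0.307, and striatum from 0.496, 0.512, 0.305 and 0.468 to 0.25, 0.377 and 0.254. Only in hippocampus did the treatments not overlap. The averaged change was -0.74 ± 0.139 (adjusted p = 0.00145).

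The KCl response was compared between genes by the nearest tested TAPE of each of 5 genes, 10 pairs in all. That of Fosl2 lay 576 kb from its gene, nearer to other genes. Exact permutation within regions was used (two-sided, 14000 arrangements), with p adjusted over the 10 pairs. The Fosb TAPE responded more than the Fosl1 TAPE, by 1.21 ± 0.291 on the log2 scale (exact permutation p = 0.00114, adjusted 0.0114), and the Junb TAPE more than the Fosl1 TAPE, the Fosl1 minus Junb difference being -0.86 ± 0.22 (exact permutation p = 0.00357, adjusted 0.0179). Fosb minus Fosl2 was 0.68 ± 0.279 (exact permutation p = 0.0427, adjusted 0.108). The other 7 pairs had an adjusted p of at least 0.108, among them Fosb and Junb, which differed by 0.35 ± 0.249 (exact permutation p = 0.216). The number of pairs under an exact permutation p of 0.05 went from 3 to 6 without striatum KCl replicate 7 and to 5 without cortex vehicle replicate 2.

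**Figure D3:**
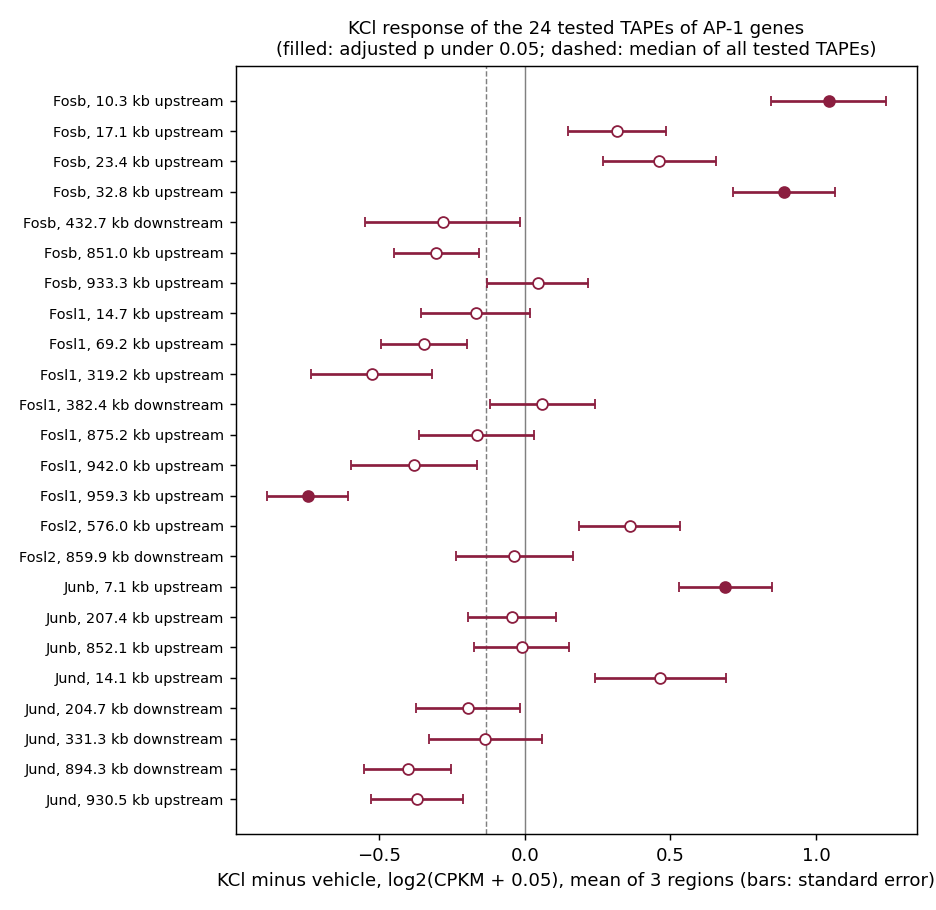
Change with KCl averaged over the 3 regions (horizontal axis, log2(CPKM + 0.05), bars are standard errors) of the 24 tested TAPEs, by gene and distance from the gene start. Filled points are the 4 TAPEs with an adjusted p under 0.05, the solid line is 0 and the dashed line the median of all 1870 tested TAPEs, -0.14.

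Correlation of TAPE and gene over the 19 libraries, as deposited, exceeded 0.5 for 10 of 147 pairs (5.3% of all pairs) and was under -0.5 for 5 (2.68%). These are descriptions over libraries that share treatment and region. Among the 12 pairs within 50 kb the count was 6 (8.71% of all such pairs): the 4 Fosb TAPEs, the Junb TAPE and the Jund TAPE at 14.1 kb. Each of these TAPEs had passed the filter on low values, and 18.5% of all pairs within 50 kb of such TAPEs exceeded 0.5. The only other member TAPE within 50 kb that passed the filter, that of Fosl1 at 14.7 kb, had 0.07. With distance the Fosb values were 0.65, 0.51, 0.58 and 0.81, and the highest belonged to the TAPE farthest from the gene. The Junb TAPE had 0.66 and the Jund TAPE 0.54. In each of these last 2, and for the Fosb TAPEs at 10.3 and 32.8 kb, the AP-1 gene had the highest correlation of all 56, 93, 68 and 68 genes within 1 Mb of the TAPE.

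The remaining 4 pairs above 0.5 were distant. Fosl2 had r = 0.77 with the TAPE 576 kb upstream, 0.79 with an untested TAPE 539 kb upstream (chr6:26154484-26158061, 92 reads in all) and 0.61 with its nearest TAPE, 255 kb downstream, which had 10 reads in 19 libraries. For the TAPE at 576 kb, Fosl2 ranked 3 by correlation among 42 genes, with Plb1 highest at 0.79. The nearest gene start was that of Slc4a1ap, at 48310 bp. Junb had r = 0.60 with an untested TAPE 834 kb upstream with 50 reads. No TAPE of Jun or Fosl1 exceeded 0.5: the highest were 0.10 for Jun, 103 kb upstream, and 0.16 for Fosl1, 31.4 kb upstream, both untested. The nearest TAPE of Jun, 30.8 kb upstream with 33 reads, had r = -0.24, and that of Jund, 6.49 kb upstream with 48 reads, had 0.22. Without striatum KCl replicate 1 the count above 0.5 was 6 in place of 10. The Fosb TAPEs at 17.1 and 23.4 kb then stood at 0.44 and 0.40, and the TAPE at 32.8 kb at 0.75.

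After the group means were removed, so that only the spread within groups was left, the correlation was 0.66 for the Fosb TAPE at 10.3 kb and 0.68 for that at 23.4 kb, but 0.16 at 32.8 kb, -0.21 at 17.1 kb, -0.00 for the Junb TAPE and -0.10 for the Jund TAPE. The first 2 values rested on striatum KCl replicate 1: without that library they were -0.09 and -0.15, and the values at 32.8 and 17.1 kb were -0.51 and -0.52. The Fosl2 TAPE at 576 kb had 0.52 with all libraries and 0.62 without that library. Within regions the Fosb TAPE at 32.8 kb had r of 0.92 in cortex, 0.80 in hippocampus and 0.80 in striatum, each over 6 or 7 libraries of 2 treatments.

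**Figure D4:**
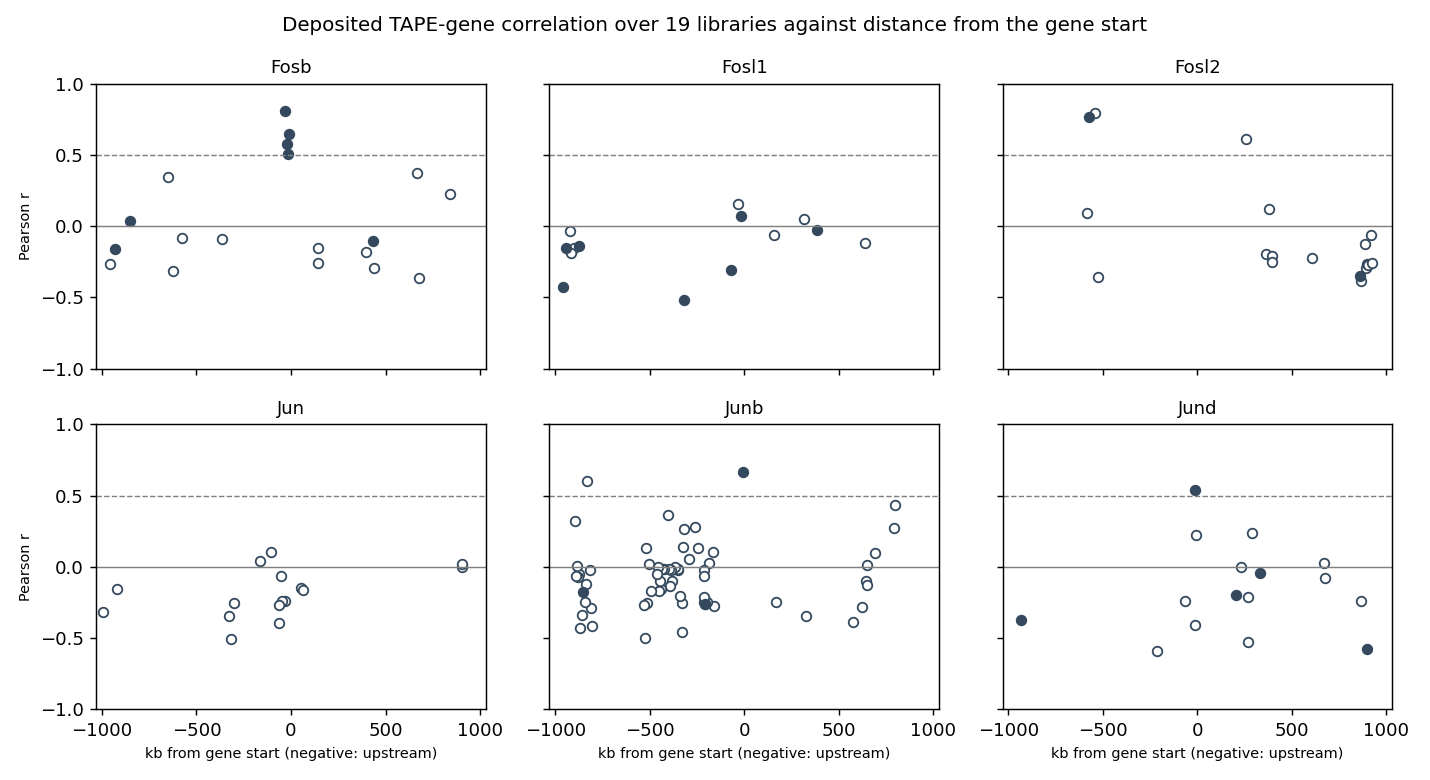
Deposited Pearson correlation over 19 libraries (vertical axis) of all 147 pairs against distance from the gene start (horizontal axis, kb, negative is upstream), 1 panel for each gene. Filled points passed the filter on low values and the dashed line is 0.5: Fosb has 4 points above it close to the gene, and Jun and Fosl1 have 0.

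Region dependence, with treatments pooled, was found for 10 of 24 tested TAPEs, below the share of all tested TAPEs (48.8%). By gene these were 5 of 7 for Fosb, 1 of 7 for Fosl1, 2 of 2 for Fosl2, 1 of 3 for Junb and 1 of 5 for Jund. The mean CPKM over all libraries was 0.0595 for the called Fosl1 TAPE and 0.0557 for the called Jund TAPE. For the Fosl2 TAPEs at 576 and 860 kb it was 0.0521 and 0.0623. These TAPEs passed the filter on mean CPKM only through the region where they were high. The filter thus favoured a region difference in them, and their region calls are descriptions. Hippocampus against striatum passed for 12 TAPEs (43.0% of all), of which 8 were higher in striatum (26.1% of all) and 4 in hippocampus (16.9%). Over all tested TAPEs the counts were 488 and 316, so striatum was more often the higher region there too. Cortex differed from hippocampus for 3 of 24 (14.9% of all) and from striatum for 6 of 24 (33.3%). The call for the Fosb TAPE at 32.8 kb was lost without hippocampus vehicle replicate 1 or 2 or striatum KCl replicate 1 or 7 (adjusted p up to 0.0686), and the Fosb TAPE 433 kb downstream lost its call in turn without each of 8 libraries of hippocampus or striatum (up to 0.0982). Centring on the library median also ended both calls (adjusted p of 0.0904 and 0.0822). Of 14 markers of astrocytes, the oligodendrocyte lineage and microglia with a gene profile, 0 had their highest vehicle mean in striatum, 8 in cortex and 6 in hippocampus, and their part in the regional values was not tested.

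The TAPEs higher in striatum included some within 50 kb of the genes and the distant Fosl2 TAPE at 576 kb. Region dependence did not pass for the nearest Fosb TAPE, at 10.3 kb (limma F test, adjusted p = 0.404). Nor did it for the Junb TAPE at 7.13 kb (adjusted p = 0.172). The Fosl2 TAPE at 576 kb had a highest value of 0.0343 CPKM in the 6 hippocampus and 0.0314 in the 6 cortex libraries, below the lowest of 0.0508 in the 7 striatum libraries (F = 21.2, adjusted p = 1.12e-05). It passed the filter on mean CPKM only through striatum. The Fosb TAPE at 23.4 kb was lower in hippocampus than in striatum, by a log2 difference of -1.05 ± 0.252 (adjusted p = 0.00108), and that at 32.8 kb by -0.94 ± 0.294 (adjusted p = 0.0104). At 17.1 kb the difference was -0.61 ± 0.218 (adjusted p = 0.0234), which did not pass without hippocampus vehicle or KCl replicate 1 or striatum vehicle replicate 2 (adjusted p up to 0.0594) or after centring on the library median (-0.47, adjusted p = 0.0911). The Fosl1 TAPE at 14.7 kb differed from striatum in both other regions (-0.70 in cortex, adjusted p = 0.0185 and 0.0522 without cortex vehicle replicate 2, and -0.80 in hippocampus, adjusted p = 0.006). The Jund TAPE had a median of 0.00823 CPKM in cortex and 0.0766 in striatum (adjusted p = 0.00714). Fosl1 and its TAPE were thus both lower in hippocampus KCl libraries, and their correlation over 19 libraries was 0.07, with the TAPE high in striatum vehicle, where the gene was low.

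Distant TAPEs showed other patterns. The TAPE 851 kb upstream of Fosb (chr1:81071628-81073783) had between 0.258 and 0.472 CPKM in striatum (median 0.316), between 0.102 and 0.223 in cortex and between 0.0568 and 0.112 in hippocampus, with striatum above every other library (F = 31.8, adjusted p = 4.07e-07). That at 933 kb (chr1:81154344-81155674) was reversed, with medians of 0.484 in hippocampus, 0.312 in cortex and 0.195 in striatum (F = 13.1, adjusted p = 0.000344). Their correlations with Fosb were 0.04 and -0.16. The nearest gene start was that of Zfp111, at 29366 bp, for the first and that of Zfp61, at 2625 bp, for the second. The TAPE 860 kb downstream of Fosl2 (chr6:24756376-24757747) was high in hippocampus, where 5 of 6 libraries had at least 0.0971 CPKM, and at 0 in 4 of 7 striatum libraries (hippocampus minus striatum 1.55 ± 0.254, adjusted p = 8.53e-06). The TAPE 852 kb upstream of Junb (chr19:26944621-26949093) had between 0.107 and 0.138 in hippocampus, above every cortex and striatum library (F = 11.6, adjusted p = 0.000725). None of these 4 passed the averaged KCl test (averaged log2 changes between -0.30 and 0.04, adjusted p of at least 0.201).

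**Figure D5:**
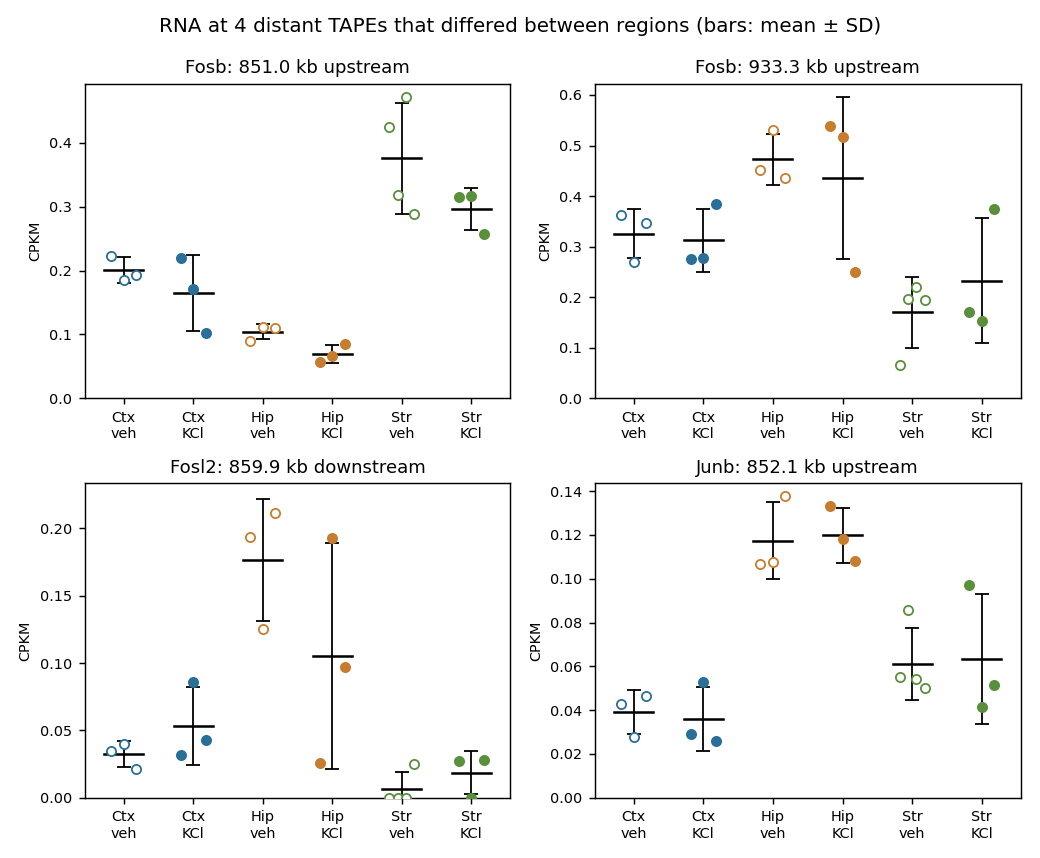
CPKM (vertical axis, from 0) of 4 distant TAPEs of Fosb, Fosl2 and Junb that differed between regions, by region and treatment. Each point is a library and bars are mean ± SD. The Fosb TAPE at 851 kb is highest in striatum, whereas the other 3 are highest in hippocampus.

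A difference of the KCl effect between the regions passed for 0 of the 24 tested TAPEs (limma F test of the interaction, against 0.0535% of all), with 2 of 24 at an unadjusted p under 0.05 (8.24% of all) and 0 passing by voom on the recovered reads. The largest F was 6.2 for the TAPE 959 kb upstream of Fosl1 (unadjusted p = 0.0057, adjusted p = 0.411).

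The region labels were checked against listed marker genes. The highest vehicle mean was in the labelled region for 6 of 6 cortex, 4 of 5 hippocampus and 8 of 8 striatum markers with a profile. Cortex vehicle replicate 3, whose title says cortex and whose tissue label says striatum, was nearer to cortex for 14 of 14 cortex and striatum markers, and without it the same number of member TAPEs, 4, passed the averaged KCl test. Of 14 astrocyte, oligodendrocyte-lineage and microglia markers with a profile, 0 passed the exact permutation test for KCl, with 2 at an unadjusted p under 0.05.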

How the data were processed

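Directional total RNA-seq libraries were trimmed with Trim Galore (0.4.5) and aligned to Rn6 with STAR by the authors, who quantified reads of mapping quality at least 20 in SeqMonk. The deposited table holds CPKM (equal to RPKM) of each TAPE in 19 libraries and a correlation score (Pearson r) of TAPE and gene, over all libraries and per region. Deposited distances are in bp. Multiplying CPKM by length and depth gave whole reads for 100.0% of values (tolerance 0.01 read), so the totals used for CPKM, 46.4 to 72.5 M reads, are known. They are above the range of reads per sample that the paper states, and the reason was not tested. About 0.106% of reads fell in TAPEs. Gene profiles were solved from the deposited correlations, which assumes that the authors ordered libraries alike for genes and TAPEs (16180 of 17715 genes, largest residual 2.44e-12). TAPEs were tested with limma 3.58.1 (R 4.3.3) on log2(CPKM + 0.05), which understates changes of low TAPEs, at a mean of at least 0.05 CPKM, with trended empirical Bayes and Benjamini-Hochberg adjustment over 1870 TAPEs. Regions were fitted alone, and averages and interactions in a model of 6 groups. Scripts were tested on simulated data. Of recovered counts above 0, 73.8% were even, so reads given here may include both mates of a pair. For this reason replicates were compared on counts divided by 2. Their chi-square was 1.11 to 1.36 times its degrees of freedom, and each library was kept as a sample. Named TAPEs were, per gene, the nearest, the highest in correlation (each also among tested TAPEs), all with a KCl call and up to 3 with region dependence, and named genes were the 3 most alike in profile. Alternatives changed the pseudocount, filter, centring, test, block and each library. The members and lists were chosen with earlier results of these data known. The value of 1 listed gene is not reported here. Libraries were grouped by title, where the study's methods count 3 vehicle and 4 KCl striatum samples the other way round.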

Additional observations from a re-analysis of the deposited data

Results flagged for a closer look

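Of 18 sets of 4 striatum vehicle values examined, 3 had a library far from the other 3, where chance gives about 1 in 20. At the TAPE 933 kb upstream of Fosb, replicate 2 was lowest at 0.0661 CPKM, with 0.197, 0.22 and 0.195 in the others (gap 0.833 of the range). At the TAPE 860 kb downstream of Fosl2, replicate 8 had 0.0252 CPKM and the others 0 (gap 1.0 of the range, which any value above 3 libraries at 0 gives). At the TAPE 852 kb upstream of Junb, replicate 4 had 0.0856 CPKM beside 0.0551, 0.054 and 0.0502 (gap 0.862 of the range). The region dependence of these 3 TAPEs passed without each of these libraries.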

How the results depend on the processing

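The 4 TAPEs with an averaged KCl call kept their direction under all 26 alternatives, and their calls too, except the Junb TAPE without a filter (adjusted p = 0.118). All 6 gene profiles kept their KCl call under all alternatives, with adjusted p of at most 0.00793. Single regions were less stable: in cortex 1 member TAPE passed after centring on the median and 1 in a joint fit of 6 groups, where the main analysis had 0. In hippocampus 2 passed after centring, 2 in the joint fit and 2 at a mean of at least 0.1 CPKM. In striatum 0 passed without a filter, and 0 without any single library. Region dependence passed for 4 TAPEs at a mean of at least 0.1 CPKM, where fewer were tested, for 6 in vehicle libraries alone and for 8 to 12 without single libraries. Pairs of TAPE responses under p = 0.05 numbered 2 to 6, and correlations above 0.5 numbered 6 to 11, without single libraries. Deviations of same-numbered cortex and hippocampus libraries correlated between -0.0418 and 0.0142. Replicates differed little beyond counting noise, so these values cannot tell whether replicate numbers pair libraries. With a replicate block, 4 member TAPEs passed the averaged test (110 of all, 129 without), 6 region dependence (568 of all, 912 without), 0 in cortex, hippocampus and the interaction, and 2 of 10 pairs. Correlations within groups were also computed without striatum KCl replicate 1, an alternative chosen after seeing the data. The causes were not tested. The filter on mean CPKM left 123 of 147 TAPEs untested, and these had at most 204 reads each over all libraries.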
